A study of Mus musculus with 18 samples.

Results

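The 10 genes described here supply and handle the long polyunsaturated lipids of photoreceptor membranes. They were taken by name: Elovl2, Elovl4, Elovl5, Fads1, Fads2, Mfsd2a, Adipor1, Agpat3, Lpcat1 and Acsl6, 10 of the 22558 genes listed in both the retinal and the RPE/choroid table. Docosahexaenoic acid (DHA) is the main polyunsaturated fatty acid of photoreceptor disc phospholipids. It is made from shorter precursors by alternating desaturation, through Fads2 and Fads1, and elongation, through Elovl5 and Elovl2, or is imported as a lysophospholipid. Elovl4 elongates such acids further, to the very long chain acids of photoreceptor phospholipids, while acyl-CoA synthetases and acyltransferases activate them and place them on phospholipids.

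RNA-seq libraries were prepared from retina and from RPE/choroid (the retinal pigment epithelium with the vascular layer under it) of mice aged 30 days, on a mixed 129SV and C57BL/6 background, with tissue taken between 3 and 5 PM. The groups were Abca4 knockout (KO), homozygous knock-in of the Abca4 L541P;A1038V allele (KI) and wild type (WT), with 3 libraries for each genotype and tissue, 18 in all. Abca4 is the photoreceptor flippase that clears retinoid adducts from disc membranes. Whether the 3 libraries in each group represent separate animals is not stated, and a p-value therefore speaks to the scatter among these samples. A library is called by its genotype and its table number (0 to 2).

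Sequencing depth, as fragments assigned to genes, ranged over 11.6 to 23.6 M per retinal library and over 14.6 to 30.0 M per RPE/choroid library. Levels per library are CPM, a gene's count relative to the effective size of its library, with scaling over all 18 libraries, and levels compared between genes are the authors' FPKM, which account for transcript length. Abca4 had 577, 576 and 550.5 CPM in KO retina, 1672, 1419 and 1336 CPM in KI retina, and 1965, 1777 and 1704 CPM in WT retina. The summed level of 15 rod markers was 62000 to 68900 CPM in retina, and in RPE/choroid 760 to 1410 CPM in KO, 661 to 1000 CPM in KI and 441 to 6940 CPM in WT. The highest of these was WT library 2 of RPE/choroid, which thus stood apart. The WT tissue differences of the 10 genes, and several of their genotype changes, are given with and without it. RPE/choroid also held markers of skeletal muscle (9680 to 15300 CPM over 12 genes), fibroblasts (10900 to 20600 CPM over 10 genes) and melanocytes (12500 to 15200 CPM over 10 genes), which in retina summed to at most 10.9, 137 and 88.8 CPM. The melanocyte list holds pigment genes such as Tyr, Tyrp1 and Dct, which do not set melanocytes apart from RPE. Lens markers varied within retina, at 370, 4520 and 11200 CPM in KO, 5110, 277 and 357 CPM in KI, and 555, 146 and 34 CPM in WT.

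In retina, the order of the 10 genes by FPKM over the 9 libraries began with Adipor1 (402 ± 43.5 FPKM, mean and SD), Agpat3 (319 ± 30.2) and Elovl4 (242 ± 13.7). Acsl6 (82.7 ± 4.47 FPKM) and Lpcat1 (76.9 ± 5.95 FPKM) followed, then Fads2 (36.1 ± 2.99 FPKM) and Fads1 (22.9 ± 0.752 FPKM). Elovl2 and Elovl5 stood at the same mean, 18.8 FPKM, with SDs of 2.54 and 1.30, and Mfsd2a was last (2.07 ± 0.669 FPKM). Neighbours whose ranges overlapped were Adipor1 and Agpat3, Acsl6 and Lpcat1, Fads1 and Elovl2, and Elovl2 and Elovl5. Elovl4, the elongase of very long chain acids, lay above 99.0% of all genes in WT retina, and Adipor1, the adiponectin receptor whose loss in mice lowers retinal DHA, above 99.5%.

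In RPE/choroid, the order by FPKM was Adipor1 (164 ± 10.02), Acsl6 (98.7 ± 12.4), Fads1 (74.1 ± 4.44), Fads2 (69.8 ± 4.14), Elovl5 (63.2 ± 13.9), Agpat3 (58.4 ± 6.19), Lpcat1 (16.6 ± 1.58), Elovl4 (13.1 ± 8.31), Mfsd2a (7.15 ± 1.61) and Elovl2 (5.14 ± 1.77). The ranges of neighbours overlapped in every case except Adipor1 with Acsl6, Acsl6 with Fads1, and Agpat3 with Lpcat1. FPKM per count also differed with the library number, and whether that feature also reaches the counts was not tested. In all 6 groups, library 2 had relatively more FPKM for a given count of Elovl5, Elovl2 and Elovl4 than libraries 0 and 1, by 1.40 times for Elovl5 and 1.35 times for Elovl2 in RPE/choroid. In retina, library 2 of KO, KI and WT had the highest Elovl4 FPKM of its genotype (264.7, 255.7 and 254.5). It also had the lowest Elovl4 CPM (648, 634 and 627). Elovl5 in RPE/choroid read 89.7, 80.5 and 68.2 FPKM in library 2 of KO, KI and WT, above the 47.6 to 60.0 FPKM of the other 6 libraries, while its CPM in those libraries were 157, 133 and 122.5, within or below the 132 to 160 CPM of the others.

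**Figure D1:**
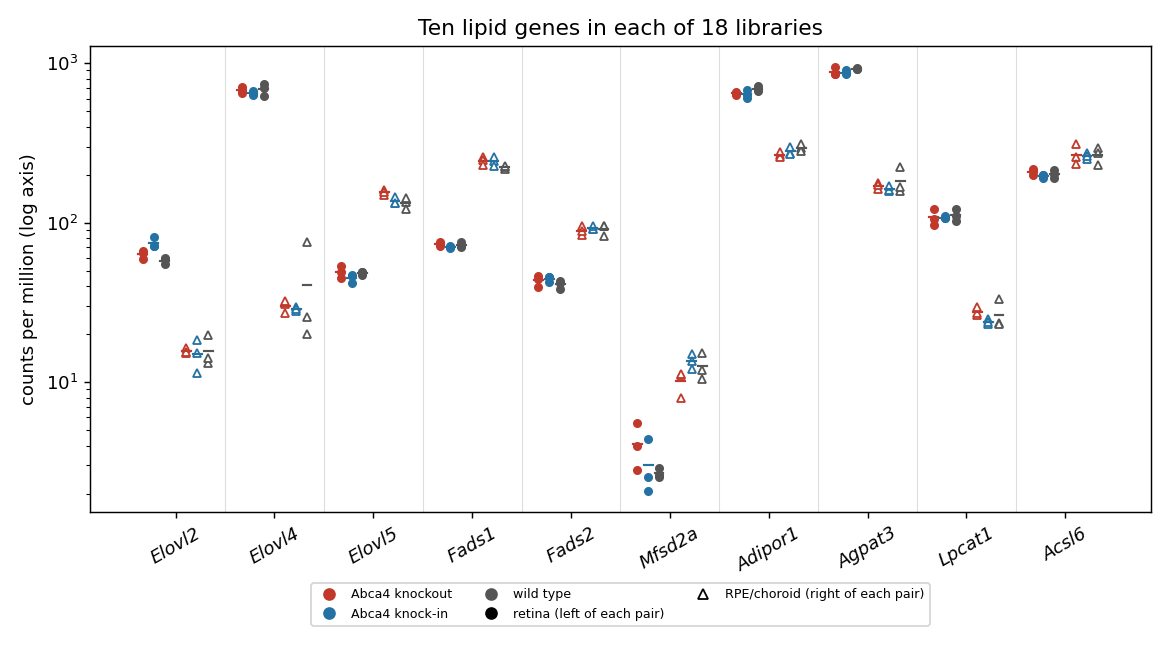
CPM (log axis) of the 10 genes in each library, with retina as filled circles on the left of each gene and RPE/choroid as open triangles on the right, in the order KO, KI, WT, and a short line at each group's mean. The 2 tissues separate for every gene, and Elovl4 in RPE/choroid has 1 WT library at 76.0 CPM above the others at 20.0 to 32.1 CPM.

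The largest differences among these genes lay between the tissues. All 10 genes passed edgeR's quasi-likelihood test with Benjamini-Hochberg adjustment in WT, with 5 higher and 5 lower in retina than in RPE/choroid. This is read against a background in which 85.9% of 16222 tested genes were called in the same comparison, 41.9% as higher and 44.0% as lower in retina. The median log2 difference was 0.42 over the 10 genes and -0.04 over all tested genes. The same 5 genes were higher and the same 5 lower in KO (85.5% of all genes called, 41.6% higher and 43.9% lower) and in KI (86.4% called, 42.1% higher and 44.3% lower). In CPM, the 9 retinal libraries did not overlap the 9 of RPE/choroid in any of the 10 genes, as in 76.0% of all tested genes. Because these are bulk tissues, fewer cells of a type and less RNA per cell cannot be told apart.

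The 3 elongases among the 10 genes did not all differ in the same direction. Elovl4 had 738, 696 and 627 CPM in WT retina, against 20.0, 25.6 and 76.0 CPM in WT RPE/choroid. Its log2 difference was 4.09 (SE 0.388, edgeR adjusted p = 2.6e-07) with all libraries and 4.91 (SE 0.117) without WT library 2 of RPE/choroid. Elovl2, which lengthens the precursors of DHA, had 59.9, 59.0 and 54.7 CPM in WT retina, against 13.2, 14.2 and 19.7 CPM in WT RPE/choroid, a log2 difference of 1.89 (SE 0.148, edgeR adjusted p = 4.33e-09). Elovl5, which acts on the shorter acids before Elovl2, went the other way, with 49.0, 48.9 and 46.6 CPM in WT retina, against 135.5, 142 and 122.5 CPM in WT RPE/choroid. Its log2 difference was -1.47 (SE 0.0714, edgeR adjusted p = 6.44e-12).

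Both desaturases were lower in retina. Fads1, the delta-5 desaturase, had 70.9, 70.6 and 75.6 CPM in WT retina, against 216, 224 and 228 CPM in WT RPE/choroid, a log2 difference of -1.62 (SE 0.0587, edgeR adjusted p = 1.73e-13). Fads2, the delta-6 desaturase, had 38.3, 41.6 and 43.0 CPM in WT retina, against 82.6, 94.9 and 95.3 CPM in WT RPE/choroid, a log2 difference of -1.15 (SE 0.0743, edgeR adjusted p = 2.4e-10). Among the 5 desaturases and elongases of the set, Elovl2 and Elovl4 were thus higher in retina, and Fads1, Fads2 and Elovl5 lower.

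The genes of uptake also differed. Mfsd2a, the transporter that imports DHA as lysophosphatidylcholine and is known from the RPE and from brain endothelium, had 2.63, 2.88 and 2.53 CPM in WT retina, against 15.3, 11.9 and 10.4 CPM in WT RPE/choroid. Its log2 difference was -2.22 (SE 0.273, edgeR adjusted p = 9.05e-07). It was the lowest of the 10 genes in retina, where 30 to 103 fragments per library were assigned to it. Adipor1 had 720, 690 and 668 CPM in WT retina, against 293, 283 and 311 CPM in WT RPE/choroid, a log2 difference of 1.23 (SE 0.0599, edgeR adjusted p = 6.7e-12).

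Both acyltransferases among the 10 genes were higher in retina. Agpat3, which builds DHA into phosphatidic acid, had 935, 926 and 914 CPM in WT retina, against 157.5, 168 and 224.5 CPM in WT RPE/choroid, a log2 difference of 2.34 (SE 0.1004, edgeR adjusted p = 1.36e-12). Lpcat1, which remodels phosphatidylcholine and whose loss in mice causes photoreceptor degeneration, had 103, 110 and 121 CPM in WT retina, against 23.4, 23.2 and 33.0 CPM in WT RPE/choroid. Its log2 difference was 2.08 (SE 0.118, edgeR adjusted p = 4.74e-11). Acsl6, the acyl-CoA synthetase that favours DHA, had 214, 201 and 190 CPM in WT retina, against 228.5, 293 and 272 CPM in WT RPE/choroid. By counts, which take no account of transcript length, it differed least of the 10 genes, with a log2 difference of -0.39 (SE 0.0970, edgeR adjusted p = 0.00130). Its 2 tissues came within 1.05 times of each other at their nearest libraries. Blood markers, 8 genes measured, summed to 5.52 to 17.6 CPM in retina and 72.4 to 211 CPM in RPE/choroid. Markers of RPE, endothelium, fibroblasts, skeletal muscle, melanocytes, myelin, adipocytes, and Müller glia and astrocytes were also higher in RPE/choroid. Those of rods and cones were lower. The part of these lists in the level of Acsl6 was not tested.

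WT library 2 of RPE/choroid had the highest RPE/choroid value of its genotype for the 5 genes that were higher in retina. Without it the log2 differences in WT were 2.07 for Elovl2, 2.51 for Agpat3, 2.26 for Lpcat1 and 1.27 for Adipor1, each larger than with it. They were -1.53 for Elovl5, -1.6 for Fads1, -1.12 for Fads2, -2.33 for Mfsd2a and -0.369 for Acsl6, and all 10 genes were still called.

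**Figure D2:**
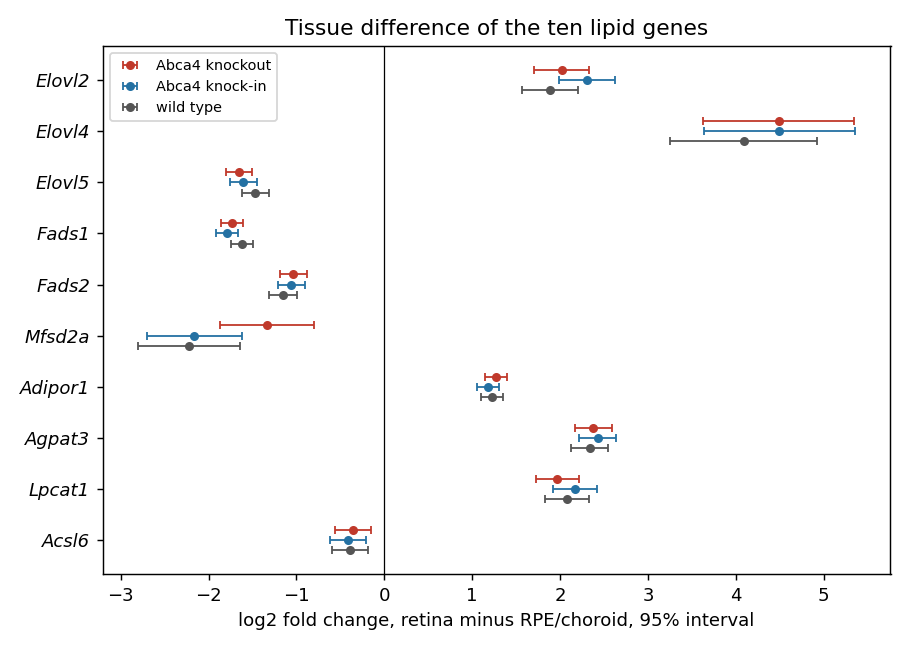
Log2 fold change of the 10 genes, retina minus RPE/choroid, with 95% intervals, in KO, KI and WT. Elovl4, Agpat3, Lpcat1, Elovl2 and Adipor1 lie to the right of 0 and the other 5 genes to the left in each genotype, with Acsl6 nearest to 0 at -0.39 in WT.

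The total of Acsl6 hid a larger difference in which transcripts were read. Acsl6 and Elovl4 are the 2 members for which the transcript tables list more than 1 transcript, and both were examined, 6 transcripts in all, as percentages of the gene's FPKM in each library. The 4 Acsl6 transcripts combine 3 alternative first exons with 2 alternative versions of exon 11. In the GENCODE annotation of the GRCm38 build the first exons begin at positions 54303798, 54304202 and 54314936 of chromosome 11, on the plus strand. They are called here the first, middle and last start. Per the same annotation, both versions of exon 11 are 78 bases long and lie near each other. In human ACSL6, alternative exons of this kind are known to encode 2 forms of the gate through which the fatty acid enters. The annotated last exon, exon 21, also differs. It has 3697 or 3693 bases in transcripts with the first version of exon 11, and 476 or 480 bases in those with the second. The part of this length in the Acsl6 tissue difference by counts was not tested.

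The transcript with the last start, which carries the second version of exon 11, held 4.06%, 3.75% and 3.90% of Acsl6 FPKM in KO retina, 4.49%, 4.14% and 3.80% in KI retina, and 2.54%, 3.94% and 3.12% in WT retina. In RPE/choroid it held 56.6%, 51.7% and 56.3% in KO, 57.2%, 51.4% and 57.4% in KI, and 53.3%, 54.8% and 53.3% in WT. No retinal library came near any of RPE/choroid, whatever the genotype. Over the 9 libraries of each tissue the shares were 3.75% ± 0.584 in retina and 54.7% ± 2.34 in RPE/choroid (mean and SD). The exact two-sided permutation test over 9 against 9 libraries gave p = 4.11e-05, the smallest it can give (8.23e-05 adjusted over the 6 transcripts).

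The transcript with the middle start and the first version of exon 11 was the main one in retina, at 72.3% ± 6.83, against 28.3% ± 5.00 in RPE/choroid (exact permutation p = 4.11e-05, adjusted 8.23e-05). The transcript with the middle start and the second version of exon 11 held 4.66% to 12.7% in the 9 retinal libraries and was listed at 0 in all 9 of RPE/choroid. The transcript with the first start held 16.0% ± 7.07 in retina and 17.1% ± 4.21 in RPE/choroid (exact permutation p = 0.703, also 0.703 when adjusted). In retina, shares also went with the library number. Library 2 of KO, KI and WT had the highest first-start share of its genotype (25.8%, 16.8% and 28.3%). It had the lowest share of the middle start with the first version (62.5%, 70.5% and 63.9%). Together, transcripts with the second version of exon 11 made up 11.7% ± 2.54 of Acsl6 in retina and 54.7% ± 2.34 in RPE/choroid. Start and exon version are tied together in the annotated transcripts, so their shares cannot be told apart in RPE/choroid. The version of exon 11 and the length of the last exon go together in every annotated Acsl6 transcript. Their use therefore cannot be told apart in either tissue, and shares rest on how the authors' software divided shared fragments.

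The share of the last start in Acsl6 varied little with genotype. In retina it averaged 3.90% ± 0.157 in KO, 4.14% ± 0.345 in KI and 3.20% ± 0.705 in WT (SD, n = 3 each), and in RPE/choroid 54.9% ± 2.75 in KO, 55.3% ± 3.40 in KI and 53.8% ± 0.862 in WT. Groups of 3 against 3 cannot reach an exact permutation p under 0.1, so these were not tested.

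**Figure D3:**
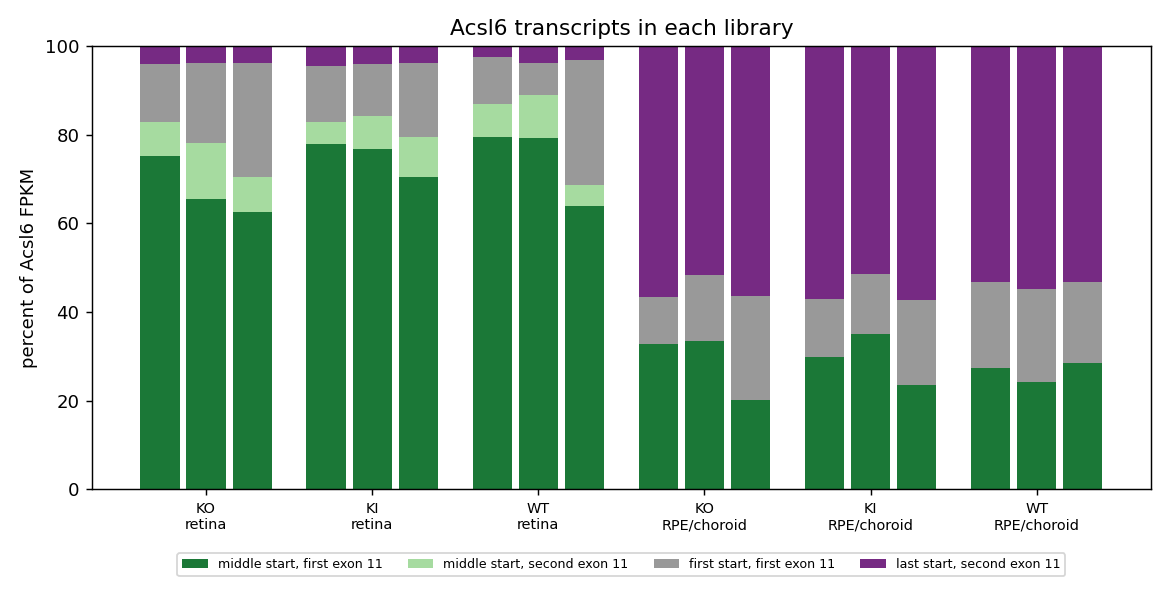
Percent of Acsl6 FPKM held by each of its 4 transcripts, 1 bar per library, retina on the left and RPE/choroid on the right, in the order KO, KI, WT. The transcript with the last start fills 2.54% to 4.49% of each retinal bar and 51.4% to 57.4% of each RPE/choroid bar, and the transcript with the middle start and the second exon version is seen in retina.

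The 2 versions of exon 11 are printed because the tissues differed in the shares of the transcripts that carry them. They match at 46 of 78 positions when laid side by side without gaps (59.0%), and capitals mark the 32 positions that differ. Sequences are those of the GENCODE M21 transcripts, plus strand, at chr11:54336936-54337013 for the first version and chr11:54337071-54337148 for the second (GRCm38).
Acsl6 exon 11, first version: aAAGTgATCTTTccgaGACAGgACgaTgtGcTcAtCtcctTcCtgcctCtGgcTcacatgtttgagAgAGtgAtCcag
Acsl6 exon 11, second version: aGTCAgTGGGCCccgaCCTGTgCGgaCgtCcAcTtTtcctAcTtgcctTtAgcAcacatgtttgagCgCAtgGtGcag

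The promoter windows of Acsl6 show which stretch goes with which start. RefSeq windows of 300 bases (250 before a gene's start and 50 after it, build GRCm38.p6) were found for 9 of the 10 genes, 13 windows in all. Windows were searched on both strands for 4 motifs. The letters CCAAT make up the CCAAT box, found in 6 of the 13 windows and in 37.4% of 32851 promoter windows. The letters GGGCGG make up the GC box, found in 9 of the 13 and in 35.7% of all. The letters CACGTG make up the E-box, found in 2 of the 13 and in 7.15% of all. The letters TAATCC are the core bound by the photoreceptor factors Crx and Otx2, found in 1 of the 13 and in 7.06% of all. Capitals below mark any of these matches, which may overlap one another. The windows cover the first start (chr11:54303574-54303873), the middle start (chr11:54303954-54304253) and the last start (chr11:54314653-54314952).
Acsl6 first start: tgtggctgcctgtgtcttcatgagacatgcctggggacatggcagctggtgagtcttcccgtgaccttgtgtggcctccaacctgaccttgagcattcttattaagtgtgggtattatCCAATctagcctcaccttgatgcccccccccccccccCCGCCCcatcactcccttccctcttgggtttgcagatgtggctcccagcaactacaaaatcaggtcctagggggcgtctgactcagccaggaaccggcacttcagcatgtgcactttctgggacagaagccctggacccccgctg
Acsl6 middle start: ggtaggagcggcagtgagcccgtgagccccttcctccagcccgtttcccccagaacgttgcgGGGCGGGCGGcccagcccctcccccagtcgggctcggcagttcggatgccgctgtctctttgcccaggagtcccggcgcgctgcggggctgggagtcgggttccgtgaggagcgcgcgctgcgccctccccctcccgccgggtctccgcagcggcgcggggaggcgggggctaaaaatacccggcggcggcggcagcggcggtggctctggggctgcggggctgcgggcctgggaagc
Acsl6 last start: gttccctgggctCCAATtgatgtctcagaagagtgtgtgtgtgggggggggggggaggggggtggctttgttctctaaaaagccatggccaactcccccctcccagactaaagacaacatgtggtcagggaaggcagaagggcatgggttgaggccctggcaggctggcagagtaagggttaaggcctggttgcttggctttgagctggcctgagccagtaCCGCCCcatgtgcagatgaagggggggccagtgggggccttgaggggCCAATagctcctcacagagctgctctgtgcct

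The middle window of Acsl6, whose transcripts prevail in retina, has 2 GC boxes that overlap and no CCAAT box, and the last window, prevailing in RPE/choroid, has 2 CCAAT boxes and 1 GC box. Of the elongases among the 10 genes, Elovl4 (chr9:83806256-83806555, minus strand) and Elovl5 (chr9:77917115-77917414, plus strand) differed in opposite directions between the tissues and are shown for comparison. They are the 2 members whose windows hold an E-box. The match for the Crx and Otx2 core lies in the window of Lpcat1. A match describes letters in a window and no more.
Elovl4 promoter: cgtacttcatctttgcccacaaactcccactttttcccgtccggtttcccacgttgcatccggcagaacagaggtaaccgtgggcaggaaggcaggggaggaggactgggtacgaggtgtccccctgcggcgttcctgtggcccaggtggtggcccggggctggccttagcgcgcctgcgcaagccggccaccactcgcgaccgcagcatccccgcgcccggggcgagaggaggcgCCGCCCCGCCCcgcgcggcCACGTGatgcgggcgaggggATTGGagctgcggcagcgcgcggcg
Elovl5 promoter: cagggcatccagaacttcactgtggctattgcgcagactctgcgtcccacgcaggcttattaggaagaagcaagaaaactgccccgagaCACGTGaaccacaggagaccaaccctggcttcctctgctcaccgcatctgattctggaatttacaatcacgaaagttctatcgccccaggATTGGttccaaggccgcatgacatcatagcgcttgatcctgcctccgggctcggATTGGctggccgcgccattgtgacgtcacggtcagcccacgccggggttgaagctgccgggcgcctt

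Elovl4 has 2 listed transcripts, and their split varied less in retina than in RPE/choroid. The transcript with the larger share in retina held 69.9% ± 8.25 over the 9 retinal libraries and 59.0% ± 35.7 over the 9 of RPE/choroid, where single libraries lay between 0.514% and 87.3% (exact permutation p = 0.399, adjusted 0.479). In retina its share was highest in library 2 of each genotype, at 79.6% in KO, 73.8% in KI and 79.9% in WT. No difference in Elovl4 transcripts could be read at that spread.

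For each of the 10 genes, the differences between genotypes were smaller than that gene's difference between the tissues in WT. In retina, 0 of the 10 genes passed the edgeR test in KO against WT (0.98% of 14699 genes were called), and 0 passed in KI against WT (0.265% called) and in KI against KO (1.26% called). At an unadjusted p under 0.05 the counts were 0 for KO against WT (12.5% of all genes), 1 for KI against WT (8.5%) and 1 for KI against KO (11.7%). DESeq2 called 0 in KO against WT (2.22% of all genes), 1 in KI against WT (0.782%) and 0 in KI against KO (2.2%). In every case the single gene was Elovl2. The libraries of the groups did not overlap in 1 of the 10 genes in KO against WT (17.9% of all genes), 2 in KI against WT (15.3%) and 1 in KI against KO (17.5%). Apart from Mfsd2a, the 95% intervals of the members in KO or KI retina against WT lay between -0.25 and 0.51 on the log2 scale.

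Elovl2 had 66.4, 64.7 and 58.8 CPM in KO retina, 81.6, 70.9 and 71.0 CPM in KI retina, and 59.9, 59.0 and 54.7 CPM in WT retina. All 3 KI libraries lay above every KO and every WT library, while KO and WT overlapped. The log2 change in KI against WT was 0.36 (SE 0.0709, 95% interval 0.21 to 0.51), an increase of 1.29 times, with an edgeR adjusted p of 0.0546, above the threshold of 0.05. DESeq2 gave 0.364 with adjusted p = 0.00346, and the authors' deposited table gives a q-value of 0.0186 for this gene. Over the alternatives the change ran between 0.296 and 0.435 and the adjusted p between 0.00346 and 0.292. The change in KI against KO was 0.23 (SE 0.0702, edgeR adjusted p = 0.147), and in KO against WT 0.13 (SE 0.0714, edgeR adjusted p = 0.481).

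By Xist and Y-linked genes, the 3 KI retinal libraries were female, as were KO libraries 1 and 2 and WT library 2. In RPE/choroid only KI library 2 was female, so sex was not balanced between the tissues. With a sex term in retina, which no KI retinal library informs because all are of 1 sex, the Elovl2 change was 0.435 (SE 0.0826, edgeR adjusted p = 0.0737). Of 12 marker lists, 4 had summed levels that did not overlap between KI and WT retina. Rods summed to 63100 to 64800 CPM in KI and 65400 to 68900 CPM in WT, and blood to 7.64 to 9.73 CPM in KI and 15 to 17.6 CPM in WT. Melanocytes summed to 69.5 to 70.9 CPM in KI and 45.7 to 67.2 CPM in WT, and adipocytes to 24.3 to 26.2 CPM in KI and 22.1 to 23.9 CPM in WT. The RPE marker Rpe65 had 22.5, 13.4 and 13.9 CPM in KO retina, 10.4, 10.3 and 11.4 in KI, and 6.04, 5.52 and 6.30 in WT. Summed RPE markers overlapped, at 939 to 1090 CPM in KO, 1020 to 1060 in KI and 1010 to 1040 in WT. The part of these lists or of Rpe65 in the Elovl2 value was not tested. KI library 0, with the highest lens sum of its group, also had the highest Elovl2. The change was 0.296 (SE 0.0705, edgeR adjusted p = 0.175) without that library and 0.327 (SE 0.0784, edgeR adjusted p = 0.184) with a lens term. In RPE/choroid, Elovl2 had 16.3, 15.2 and 15.4 CPM in KO, 11.5, 15.2 and 18.4 CPM in KI, and 13.2, 14.2 and 19.7 CPM in WT, with full overlap. The difference between the KI change in retina and that in RPE/choroid was 0.43 (SE 0.206, edgeR adjusted p = 0.815). Without WT library 2 of RPE/choroid that difference was 0.24 (SE 0.175, edgeR adjusted p = 0.846).

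Mfsd2a was the other gene with a sizeable retinal estimate. It had 2.82, 3.97 and 5.52 CPM in KO retina, 4.38, 2.09 and 2.53 CPM in KI retina, and 2.63, 2.88 and 2.53 CPM in WT retina. KO and WT overlapped, and the log2 change was 0.59 (SE 0.298, edgeR adjusted p = 0.442). The 3 highest values, in KO libraries 1 and 2 and KI library 0, fell in the 3 libraries with the highest lens sums (4520, 11200 and 5110 CPM). With a lens term the KO change was -0.135 (SE 0.274), the other direction.

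The remaining 8 genes held within narrow limits in retina. Elovl4 had 712, 666 and 648 CPM in KO retina, 639, 668 and 634 CPM in KI retina, and 738, 696 and 627 CPM in WT retina, and log2 changes of -0.03 in KO (95% interval -0.17 to 0.12) and -0.09 in KI (-0.23 to 0.05). Adipor1 had 657, 631 and 649.7 CPM in KO retina, below the 720, 690 and 668 CPM of WT retina without overlap, and the change was -0.10 (95% interval -0.23 to 0.02, edgeR adjusted p = 0.496). Agpat3 had 850.3, 901 and 868 CPM in KI retina, below the 935, 926 and 914 CPM of WT retina, a change of -0.08 (95% interval -0.21 to 0.04, edgeR adjusted p = 0.755). The coefficient of variation over the 9 retinal libraries was 3.21% for Fads1, 4.18% for Agpat3, 4.88% for Acsl6, 5.21% for Adipor1, 5.71% for Elovl4, 6.39% for Fads2, 6.81% for Elovl5 and 7.53% for Lpcat1. It was 12.7% for Elovl2 and 34.3% for Mfsd2a.

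**Figure D4:**
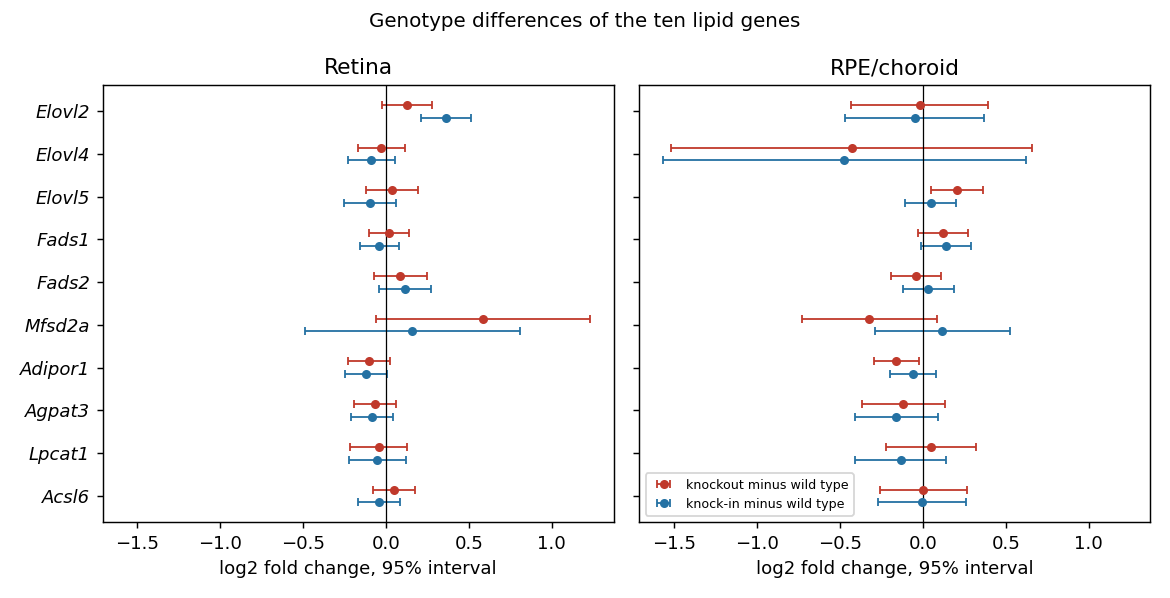
Log2 fold change of the 10 genes with 95% intervals, KO minus WT and KI minus WT, in retina (left) and RPE/choroid (right). The interval of Elovl2 in KI retina (0.21 to 0.51) lies clear of 0, those of Elovl5 and Adipor1 in KO RPE/choroid lie just clear of it, and the intervals of Elovl4 in RPE/choroid and Mfsd2a are the widest.

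In RPE/choroid, 0 of the 10 genes passed the edgeR test in KO against WT (0.472% of 15454 genes were called), KI against WT (0.0647% called) and KI against KO (0.453% called), and DESeq2 also called 0 in each (3.44%, 0.285% and 2.03% of all genes). At an unadjusted p under 0.05 the counts were 2 in KO against WT (15.5% of all genes), 0 in KI against WT (5.53%) and 2 in KI against KO (12.2%). The libraries of the groups did not overlap in 3 of the 10 genes in KO against WT (21.5% of all genes), 0 in KI against WT (9.56%) and 3 in KI against KO (22.3%). Without WT library 2, 2.97% of 15575 genes were called in KO against WT, and still 0 of the 10.

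Of the 12 marker lists, 3 did not overlap between KO and WT RPE/choroid. RPE markers summed to 11600 to 13300 CPM in KO and 14000 to 15300 CPM in WT, fibroblasts to 14100 to 18000 CPM in KO and 18400 to 20600 CPM in WT, and blood to 72.4 to 121 CPM in KO and 144 to 193 CPM in WT. Their part in the values of Elovl5 and Adipor1 was not tested. Elovl5 had 159.9, 149.8 and 157 CPM in KO, 132, 146 and 133 CPM in KI, and 135.5, 142 and 122.5 CPM in WT. All KO libraries lay above every KI and WT library, by a log2 change of 0.21 against WT (SE 0.0689, edgeR adjusted p = 0.198), or 0.143 without WT library 2 (edgeR adjusted p = 0.201), while KI differed from KO by -0.16 (SE 0.0690, edgeR adjusted p = 0.397). Adipor1 had 267, 256 and 278 CPM in KO and 293, 283 and 311 CPM in WT, without overlap, a log2 change of -0.16 (SE 0.0611, edgeR adjusted p = 0.255), or -0.129 without WT library 2 (edgeR adjusted p = 0.255). Mfsd2a had 12.0, 14.9 and 13.6 CPM in KI, above the 11.1, 11.3 and 7.99 CPM of KO, by 0.44 (SE 0.183, edgeR adjusted p = 0.374), and its WT values of 15.3, 11.9 and 10.4 CPM overlapped both.

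Elovl4 in RPE/choroid turned on a single library. It had 27.1, 31.0 and 32.1 CPM in KO, 29.5, 28.0 and 28.5 CPM in KI, and 20.0, 25.6 and 76.0 CPM in WT. All 6 KO and KI libraries lay between the second and the highest WT library. The log2 change was -0.43 in KO (SE 0.460, edgeR adjusted p = 0.69) and -0.47 in KI (SE 0.464, edgeR adjusted p = 0.915), whereas the authors' deposited table gives q-values of 0.0137 and 0.00347. Without WT library 2 the estimates turned to 0.373 in KO (SE 0.104, edgeR adjusted p = 0.0775) and 0.331 in KI (SE 0.105, edgeR adjusted p = 0.517).

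Rod markers summed to 661 to 1410 CPM in KO and KI RPE/choroid, and to 441, 637 and 6940 CPM in WT, with the most in WT library 2. With a rod term the Elovl4 change was -0.140 in KO (SE 0.0852, edgeR adjusted p = 0.376) and 0.0388 in KI (SE 0.0892, edgeR adjusted p = 0.96). For every 1000 CPM of rod markers, Elovl4 had 9.10 to 11.5 CPM in the 9 retinal libraries and 10.96 CPM in WT library 2 of RPE/choroid, but 22.8 to 45.2 CPM in the other 8 libraries of RPE/choroid. The other 4 genes that were higher in retina lay above their retinal ratio in WT library 2. On the same scale Agpat3 had 13.3 to 14.2 CPM in retina and 32.4 CPM in WT library 2. Lpcat1 had 1.41 to 1.98 and 4.75 CPM, Elovl2 0.794 to 1.29 and 2.84 CPM, and Adipor1 9.46 to 10.6 and 44.8 CPM. All 4 had higher ratios still in the other 8 libraries of RPE/choroid. Each ratio counts all of a gene's RNA in a library, whether or not it came from rods. How much of the level of these genes or of Elovl4 in WT library 2 came from rods was not tested.

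Agpat3 and Lpcat1, also higher in retina than in RPE/choroid, had their highest RPE/choroid values in the same library. Agpat3 had 161, 178 and 172 CPM in KO, 158, 161 and 169 CPM in KI, and 157.5, 168 and 224.5 CPM in WT RPE/choroid. Lpcat1 had 26.2, 27.2 and 29.6 CPM in KO, 24.9, 23.1 and 23.7 CPM in KI, and 23.4, 23.2 and 33.0 CPM in WT RPE/choroid. In both genes WT library 2 lay above the other 8 libraries. Without it the Agpat3 changes were 0.0467 in KO and 0.00336 in KI (with it, -0.12 and -0.16), and those of Lpcat1 were 0.228 in KO and 0.0428 in KI (with it, 0.05 and -0.13).

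**Figure D5:**
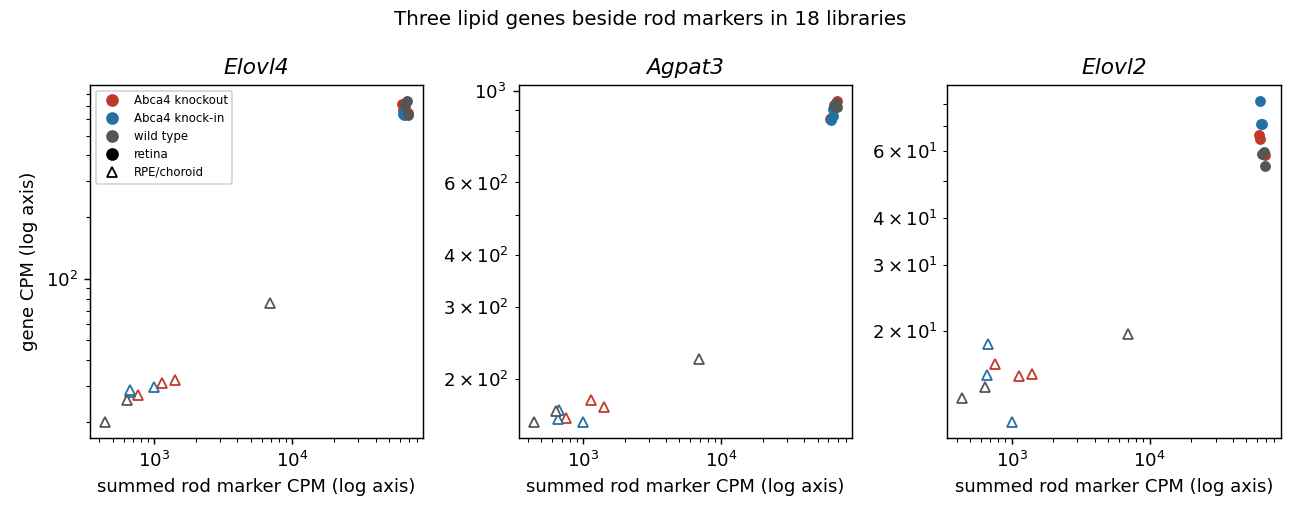
CPM of Elovl4, Agpat3 and Elovl2 (log axis) beside the summed CPM of 15 rod markers (log axis) in the 18 libraries, with retina as filled circles and RPE/choroid as open triangles. A single WT library of RPE/choroid, at 6940 CPM of rod markers, lies between the 2 tissues, with 76.0 CPM of Elovl4 and 224.5 CPM of Agpat3.

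The genotype changes were also compared between tissues in a fit of all 18 libraries. For 0 of the 10 genes did the edgeR test call the KO change different between retina and RPE/choroid (0.136% of 16222 genes called) or the KI change (0.0555% called), and DESeq2 called 0 in both (1.54% of all genes for KO and 0.228% for KI). Without WT library 2 of RPE/choroid, 2.06% of 16348 genes were called for KO, again 0 of the 10. At an unadjusted p under 0.05 the counts were 1 for KO (12.3% of all genes) and 0 for KI (5.98%). The single gene was Mfsd2a, whose KO change was 0.59 in retina and -0.32 in RPE/choroid, a difference of 0.885 (SE 0.376, edgeR adjusted p = 0.366). Without WT library 2 of RPE/choroid that difference was 0.992 (SE 0.378, edgeR adjusted p = 0.176).

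Further genes of the pathway, 122 symbols in 6 lists of which 115 were in the tables, were compared between genotypes in the same fits. In retina, 103 were tested, and 2 were called in KO against WT (0.98% of all genes) and 1 in KI against WT (0.265%). Ppara, a nuclear receptor for fatty acids, averaged 19.8 CPM in KO and 0.986 CPM in WT, a log2 change of 4.32 (SE 0.159, edgeR adjusted p = 2.29e-09), and Cd36, a fatty acid translocase, averaged 2.15 CPM in KO and 4.95 CPM in WT, a change of -1.17 (SE 0.198, edgeR adjusted p = 0.0112). The other 101 were not called, and the median change of the 103 was 0.00565 against -0.00317 for all tested genes. Of the 12 marker lists, 6 did not overlap between KO and WT retina. Blood summed to 5.52 to 6.14 CPM in KO and 15 to 17.6 CPM in WT. Müller glia and astrocytes, cones, melanocytes, adipocytes, and myelin and Schwann cells were higher in KO. Their part in the values of Ppara, Cd36 and Adipor1 in KO retina was not tested. In KI against WT, Lpcat2, an acyltransferase related to Lpcat1, averaged 44.8 CPM in KI and 34.1 CPM in WT, a change of 0.39 (SE 0.0683, edgeR adjusted p = 0.0287), and the other 102 were not called. In RPE/choroid, 0 of 110 were called in KO (0.472% of all genes) or KI (0.0647%) against WT.

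Between the tissues, 23 of 111 further genes tested were higher in WT retina than in WT RPE/choroid, 73 were lower and 15 were not called, with a median log2 difference of -0.76 against -0.04 for all tested genes. Over all tested genes 41.9% were higher and 44.0% lower, and the counts of each list below are set against these shares. Some of the 111 did not pass the filter on low counts in retina and were tested here through RPE/choroid. Their lower direction was fixed by that filter. Tested genes at large also include some that passed through a single tissue. Of the partners in DHA synthesis, 4 of 20 were higher and 12 lower. The elongases Elovl1 (-4.95, SE 0.117) and Elovl7 (-3.54, SE 0.129) and the desaturase Fads3 (-2.75, SE 0.103) were lower in retina, as were Elovl5, Fads1 and Fads2. Of the genes of uptake, binding and activation, 4 of 20 were higher and 13 lower, among them the lipoprotein receptor Vldlr (1.93, SE 0.0878) and the acyl-CoA synthetase Acsl3 (2.10, SE 0.0913) on the retinal side and Lrp1 (-2.83, SE 0.0814) and Acsl5 (-1.80, SE 0.0854) on the other.

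Phospholipid acylation and remodelling was evenly divided, with 10 of 24 higher in WT retina, led by the CDP-diacylglycerol synthase Cds1 (2.93, SE 0.123) and Lpgat1 (1.36, SE 0.0684), and 11 lower, among them the phospholipase Pla2g4a (-4.48, SE 0.145) and the acyltransferase Lpcat3 (-1.96, SE 0.0821). Of the adiponectin receptor axis 3 of 16 were higher and 12 lower, C1qtnf5 by -6.72 (SE 0.242). Of the regulators 2 of 17 were higher and 11 lower, with Ppara at -4.17 (SE 0.132). The 17 include Hnf4a, Pparg and Mlxipl, which did not pass the filter on low counts in retina. All 14 genes of DHA oxygenation and defence against lipid peroxidation were lower in WT retina, among them Gsta4, which conjugates the aldehydes of lipid peroxidation (29.7 CPM in WT retina and 939 CPM in WT RPE/choroid), and Nqo1 (4.39 CPM in WT retina and 91.9 CPM in WT RPE/choroid). For Alox12 and Alox15, which did not pass the filter on low counts in retina, that direction was fixed in advance.

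The genes whose log2 CPM followed each member most closely over the 18 libraries were found among 14983 genes, by Pearson's r as a description. Since the tissues separate every member, r mostly records that separation, shared depth and library. For Elovl4 they were Mtap2 (0.999), Wasf3 (0.999) and Gnb1 (0.999), the last the beta subunit of rod transducin. For Agpat3 they were Kdm4c, Osbp2 and Ccdc126 (each 0.999), for Fads1 Itpkb (0.998), Tmem47 (0.997) and Amotl1 (0.997), and for Elovl5 Dtx3l (0.998), Cflar (0.997) and Plscr4 (0.997). Acsl6, with the smallest tissue difference, had the lowest such values, with Slc6a15 at 0.937.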

How the data were processed

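Stranded total RNA libraries depleted of ribosomal RNA were made from the 18 samples, per the labels. The submitters' processing notes name TopHat, Bowtie2, Cufflinks and the mm9 build. Their versions, the annotation and the strand setting were not given in the sources used here, and same-numbered libraries are not linked to the labels' numbers. The deposited gene tables give fragments per gene before scaling, which are expected counts per the file headers (98.5% whole in retina and 98.4% in RPE/choroid) and were rounded, and FPKM per library. The deposited transcript tables give FPKM per transcript. The authors' comparison tables give q-values. Each member's transcript estimates were without failures.

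The count test was that of edgeR 4.0.16 under R 4.3.3 (robust quasi-likelihood, TMM scaling, filterByExpr), with 9 libraries of a tissue together, and all 18 for tissue and interaction contrasts. P-values were adjusted over all tested genes and called under 0.05. All 10 members passed the filter. Retinal libraries had a biological coefficient of variation of 0.114, and RPE/choroid libraries of 0.154. No 2 libraries of a group were copies. Shares of transcripts were compared with exact permutation tests. Alternatives were DESeq2 1.42.0, RLE scaling, no filter, limma 3.58.1 on log2(FPKM + 1) and log2(FPKM + 0.1), sex, lens or rod terms, a replicate block, the compared groups only and leaving out each library. The edgeR test was also run on simulated counts, and the outcome of that run is not given here. The members are all named, and further genes are named by smallest p among called genes, up to 4 per list. Members and lists were chosen with earlier results of these data known. Sequences come from GENCODE M21 and RefSeq (GRCm38), and no coordinates were converted from mm9.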

Additional observations from a re-analysis of the deposited data

How the results depend on the processing

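Of 1350 alternative values of the 10 genes over 9 comparisons, 3 crossed the threshold of 0.05 and none that was called changed sign. All 3 were Elovl2 in KI against WT retina, so that the count of genes called there, 0, became 1 with DESeq2, 1 with no filter on low counts (adjusted p = 0.0327) and 1 with a replicate block (adjusted p = 0.018). The block used the tables' library numbers. No label says what a number stands for, deviations of same-numbered libraries in log2 CPM correlated at -0.468 to 0.243, and the block changed no other call of these genes. Leaving out each library in turn changed no call. The 10 tissue differences in WT were called under all alternatives run. limma on FPKM was not run between tissues, because FPKM were scaled separately in each tissue. FPKM per fragment deviated together in library 2 of every group (r between these libraries 0.965 to 0.986 in retina and 0.976 to 0.993 in RPE/choroid, and -0.987 to -0.848 and -0.962 to -0.399 with the others). Whether that feature also reaches the counts was not tested. Over all genes the counts called moved more. In KO against WT they were 144 in retina (27 to 327 over the alternatives) and 73 in RPE/choroid (17 to 532, with 462 without WT library 2). In KI against WT they were 39 in retina (9 to 115) and 10 in RPE/choroid (2 to 44), and in KI against KO 185 in retina (20 to 324) and 70 in RPE/choroid (23 to 313). The differences between tissues in the KO change numbered 22 (8 to 337, the highest without WT library 2 of RPE/choroid), and in the KI change 9 (1 to 37). Depth limits Mfsd2a most, with 30 to 103 fragments per retinal library.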
